A study of Mus musculus with 6 samples.

Results

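In primary mouse vascular smooth muscle cells, 1370 stretches of accessible chromatin were called in every one of 6 ATAC-seq libraries and lay at an annotated end of at least 2 different protein-coding genes. They were found by merging the peaks of the 6 libraries wherever they overlapped by 1 base or more, on chromosomes 1 to 19, X and Y. A merged region was kept when all 6 libraries had a peak in it and when it reached within 1000 bases of the start or end of 2 or more genes. Merging gave 85174 regions, of which 20742 (24.4%) were called in 6 of 6 libraries, so the shared regions made up 6.60% of the constitutive regions and 1.61% of all regions. A further 5634 constitutive regions touched 1 gene's end and 13738 touched none. Because presence in all libraries chose them, the numbers of shared regions and their presence are a description.

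The cells were primary VSMCs from a commercial supplier, and the study asked which accessible regions depend on Arid3a, a transcription factor that binds AT-rich DNA. The control group held 3 libraries labelled Negative Control. The knockdown group held 3 libraries, labelled si-Arid3a#1, si-Arid3a#2 and si-Arid3a#3. The labels do not say whether these numbers mark different siRNAs or replicates. The spread of that group may therefore include differences between siRNAs. Per the labels' protocols, cells were incubated for 24 h with the transfected siRNA, and 50000 cells went into each assay, with 30 min of Tn5 digestion. No genetic modification is named for either group. The protocols also describe angiotensin II as an agent without saying which libraries were exposed to it. The labels do not tell separate cultures from repeated libraries, so the p-values below measure only the spread between these libraries, which may be technical.

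Neighbouring genes on opposite strands often have their starts close together, facing away from each other, and such pairs are said to share a bidirectional promoter. These promoters are typically rich in CpG dinucleotides, poor in TATA boxes and bound by general activators such as NF-Y, which recognises the CCAAT box, and members of the ETS and NRF1 families. Pairs of this kind are known among genes for DNA repair, mitochondria and RNA processing, and the replication-dependent histone genes H2a and H2b are a classic case.

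The stretch between the 2 starts of a facing-apart pair belongs to neither annotated gene, and it need not lie at the centre of the accessible region. The first set below was chosen to show known pairs, with a DNA repair or mitochondrial gene on at least 1 side, and 1 of the strongest shared regions (Hnrnpc/Rpgrip1). All are read on the plus strand of GRCm38.p6 (mm10), 5′ to 3′, from RefSeq promoter sequences, and each runs from the base after the start of the minus-strand gene, named first, to the base before the start of the plus-strand gene. Capitals mark CCAAT or its reverse complement ATTGG, the GC box GGGCGG or its reverse complement CCGCCC, and TATAAA or its reverse complement TTTATA. The stretches lie at chr9:53536829-53536888 (Atm/Npat), chr11:101551956-101552106 (Brca1/Nbr1), chr7:122132981-122133040 (Palb2/Dctn5), chr5:143909840-143909900 (Aimp2/Pms2), chr7:28741822-28741956 (Mrps12/Sars2) and chr14:52104040-52104240 (Hnrnpc/Rpgrip1).
Atm/Npat: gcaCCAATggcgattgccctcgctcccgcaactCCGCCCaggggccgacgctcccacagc
Brca1/Nbr1: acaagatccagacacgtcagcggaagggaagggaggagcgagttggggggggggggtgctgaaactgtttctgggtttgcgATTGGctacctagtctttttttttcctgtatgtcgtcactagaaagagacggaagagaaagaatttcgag
Palb2/Dctn5: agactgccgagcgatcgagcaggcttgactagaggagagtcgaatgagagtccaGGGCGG
Aimp2/Pms2: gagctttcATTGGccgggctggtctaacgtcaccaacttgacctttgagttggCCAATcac
Mrps12/Sars2: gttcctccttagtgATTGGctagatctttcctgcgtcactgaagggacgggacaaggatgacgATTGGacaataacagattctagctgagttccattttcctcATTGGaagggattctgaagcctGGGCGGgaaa
Hnrnpc/Rpgrip1: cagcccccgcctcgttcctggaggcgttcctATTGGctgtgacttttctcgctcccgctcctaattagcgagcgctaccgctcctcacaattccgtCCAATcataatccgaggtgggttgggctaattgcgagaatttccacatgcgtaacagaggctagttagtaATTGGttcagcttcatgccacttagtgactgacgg

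Atm encodes the kinase that signals DNA double-strand breaks and Npat a coactivator of histone gene transcription. The 60 bases between their starts were 71.7% G and C and held 1 CCAAT box and 1 GC box. Brca1 acts in homologous recombination and Nbr1 is an autophagy receptor, and their 151 bases held 1 CCAAT box, in reverse. Palb2, the partner that joins Brca1 to Brca2, faced Dctn5, a subunit of the dynactin motor complex, across 60 bases with 1 GC box at the Dctn5 side and no CCAAT box. Between Aimp2, a scaffold of the aminoacyl-tRNA synthetase complex, and Pms2, a mismatch repair protein, 61 bases held 2 CCAAT boxes in opposite orientations, 1 near each start. Mrps12, of the small mitochondrial ribosomal subunit, and Sars2, the mitochondrial seryl-tRNA synthetase, had 3 reverse CCAAT boxes and 1 GC box in 135 bases. The 201 bases between Hnrnpc, an RNA-binding protein of nuclear ribonucleoproteins, and Rpgrip1, a protein of the photoreceptor cilium, held 3.

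Histone genes gave a second set, singled out after their values were seen. Of the 9 shared regions that touched both an H2ac gene and an H2bc gene, 7 had the H2a and H2b starts facing apart, at distances of 164 to 249 bases. The 3 stretches below lie at chr13:22035644-22035820 (H2ac12/H2bc12), chr13:21753913-21754075 (H2ac15/H2bc15) and chr13:23571221-23571399 (H2ac8/H2bc8), with the same marks as above.
H2ac12/H2bc12: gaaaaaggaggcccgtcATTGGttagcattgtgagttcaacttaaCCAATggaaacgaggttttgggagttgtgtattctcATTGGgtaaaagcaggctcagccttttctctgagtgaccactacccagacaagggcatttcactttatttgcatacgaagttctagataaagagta
H2ac15/H2bc15: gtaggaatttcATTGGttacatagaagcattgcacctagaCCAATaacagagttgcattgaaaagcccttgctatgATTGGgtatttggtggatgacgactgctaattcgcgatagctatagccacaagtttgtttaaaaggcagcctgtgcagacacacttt
H2ac8/H2bc8: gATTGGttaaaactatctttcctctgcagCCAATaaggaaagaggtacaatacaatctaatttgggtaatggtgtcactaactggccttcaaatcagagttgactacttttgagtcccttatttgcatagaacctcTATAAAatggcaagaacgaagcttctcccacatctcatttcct

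All 7 histone stretches held at least 2 CCAAT boxes between the starts, and up to 5. The H2ac8/H2bc8 stretch also held 1 TATAAA, on the H2bc8 side. Their G and C content was low, with a median of 42.3% and a range of 38.5% to 47.4%. The comparison was with 62 other facing-apart pairs that had 150 to 250 bases between starts and the stretch in the RefSeq table. Of these, 40 (64.5%) held at least 1 CCAAT box, 20 (32.3%) held at least 2, and the median G and C content was 59.6%. Histone genes of a cluster are near-identical copies, so reads over their coding parts may be split between copies, and their fold enrichments are less certain than those of single-copy genes.

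The libraries differed in depth, and that bears on which regions could enter. Control library 2 and knockdown library 3 had the shortest peak lists, 33248 and 41629 peaks against 50543 to 52091 in the other 4, and the fewest sequence tags under the summits of the shared regions, with medians of 12 and 13 against 19 to 20.5. The weakest of the 6 calls came from control library 2 in 772 of the shared regions and from knockdown library 3 in 425. As a check of the cell type, a peak at a gene end in 6 of 6 libraries was present for 4 of 6 smooth muscle markers (Acta2, Tagln, Smtn and Lmod1), with Cnn1 in 4 libraries and Myh11 in 0. None of 6 fibroblast, 6 endothelial or 6 epithelial markers had one in all libraries, and 3, 4 and 6 of them respectively had none in any library. The fibroblast markers Dcn and Fbln1 had one in 5 and 4 libraries, as many as Cnn1 or more, and Pi16 in 1, while the endothelial markers Kdr and Tek had one in 2 and 1. Of 6 leukocyte markers, 2 had one in 6 libraries, Cd68 among them, and the other 4 in 0. As siRNA lowers the transcript, no peak shows how far Arid3a fell.

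The number of genes at a region went with how widely it was called, and the rule used both. Of 2215 merged regions at 2 or more genes, 61.9% were called in 6 of 6 libraries, against 44.9% of regions at 1 gene and 19.5% of regions at none. Peaks from more libraries can widen a merged region, and a wider region can reach more gene ends. The 2 numbers are thus linked by construction, and the shares are a description. The other regions at 2 or more genes were called in 5 libraries (218), 4 (136), 3 (95), 2 (117) or 1 (279). Among the 218 called in 5, the missing library was control library 2 in 115 and knockdown library 3 in 62, the 2 with the shortest lists, and another library in 6 to 13 each. The shared regions touched 2661 of 21887 protein-coding genes. Most of them, 1335, touched 2 genes, 34 touched 3, and 1 touched 4.

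That 1 region (chr17:24895867-24896567) joined Eme2, a subunit of a DNA junction endonuclease, Mrps34, of the mitochondrial ribosome, Nme3, a nucleoside diphosphate kinase, and Mapk8ip3, a kinase scaffold. Its fold enrichment, the authors' ratio of signal to local background at the strongest summit, was 9.45, 7.10 and 7.05 in control libraries 1 to 3 and 8.92, 11.7 and 10.3 in knockdown libraries 1 to 3. The groups overlapped. Fold enrichments, here and below, describe a region within a library and are not compared as change between libraries.

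Gene arrangement was not part of the rule, and facing-apart starts were the most frequent arrangement. Strand was known for both genes in 1034 of the shared regions. Of all 1370, 479 (35.0%) had starts facing apart, 254 (18.5%) had starts of opposite-strand genes that overlapped head to head, and 265 (19.3%) had a start beside another gene's end. Another 19 had starts on the same strand and 17 touched ends only, while 336 (24.5%) held a gene without strand in the tables used.

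Set against the annotation, a close pair of facing-apart starts usually had a region in all 6 libraries. Among genes with known strand there are 645 such pairs within 2000 bases, and 481 (74.6%) shared a constitutive region. For overlapping starts the share was 258 of 377 (68.4%), for a start beside an end 333 of 1134 (29.4%), and for 2 ends 48 of 1158 (4.15%). A gene start with no other gene end within 2000 bases had a constitutive region in 4094 of 14072 cases (29.1%), and a lone gene end in 253 of 13828 (1.83%). The shares for facing-apart pairs were 80.4% up to 250 bases, 83.7% from there to 500, 69.0% from there to 1000 and 25% from there to 2000, where a region has to reach into both windows to count. These shares cover only genes with known strand. Another 1785 pairs of neighbouring ends held a gene without strand, and 373 (20.9%) of them shared a constitutive region. All the shares rest on the calls that chose the regions, so they are given without a test.

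**Figure D1:**
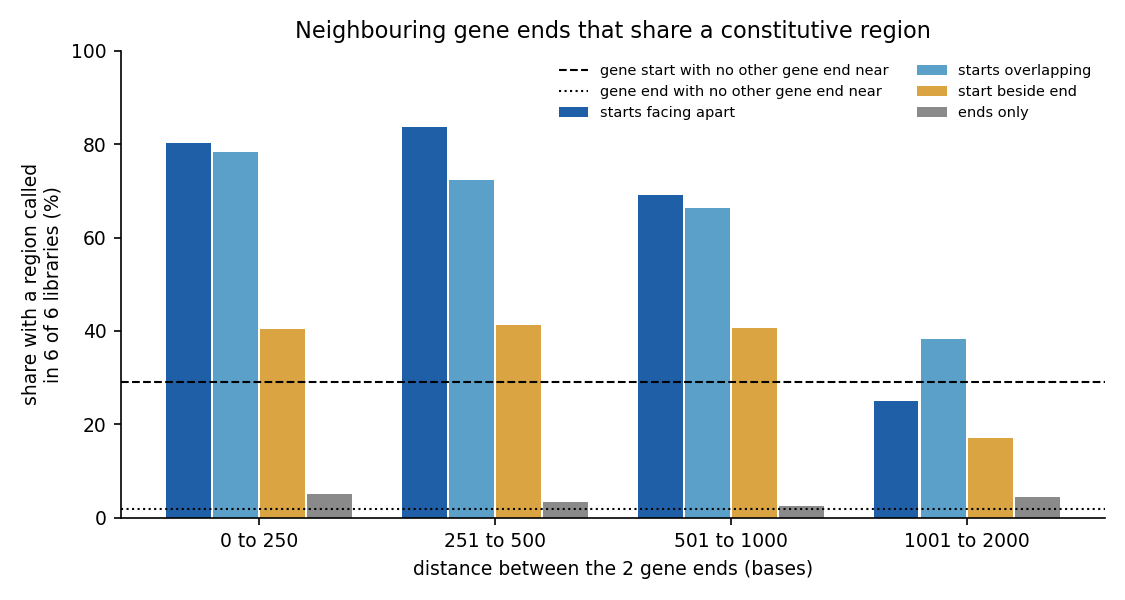
Share of neighbouring gene ends in the RefSeq annotation (y axis, percent) that share a region called in 6 of 6 libraries, by the distance between the 2 ends (x axis, bases), with bars for 4 arrangements and lines for lone starts (dashed, 29.1%) and lone ends (dotted, 1.83%). Facing-apart starts reach 80.4% up to 250 bases and drop to 25% above 1000 bases, and ends stay between 2.55% and 5.05%. Only genes with known strand are counted.

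CpG content separated starts in both arrangements. Here a promoter, 250 bases before to 50 after a start in the RefSeq table, was called CpG island-like with at least 50% G and C and an observed-to-expected CpG ratio of at least 0.6. Of lone starts, 56.8% of 5212 island-like ones and 12.4% of 7496 others had a constitutive region. Of starts that faced apart from a neighbour within 2000 bases, 83.4% of 941 island-like ones and 56.7% of 247 others had one. A region at a close neighbour's start also falls in the window of the start itself, which raises the share beside a facing-apart neighbour by construction, and the shares rest on the calls that chose the regions.

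Promoters of the facing-apart shared regions (894 with sequence) had a median of 62.0% G and C and a CpG ratio of 0.848, and 86.0% were island-like. The starts in constitutive regions of 1 gene (4052) gave 61.3%, 0.791 and 75.7%, and all protein-coding promoters (15752) gave 56.3%, 0.586 and 46.2%.

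Letters of 12 motifs were searched on both strands of the same 300-base promoters, and a match is a description and not a site. The motif CCGGAAG, of the ETS family, was present in 30.4% of promoters of facing-apart shared regions, in 28.5% of those with a start beside an end, in 19.4% of starts in constitutive regions of 1 gene and in 12.05% of all promoters. For 2 copies of GCGC with 2 bases between them, of NRF1, the shares were 20.4%, 12.5%, 14.1% and 9.06%, and for AAGATGGC, of YY1, they were 8.95%, 4.69%, 4.71% and 3.28%. CCAAT was in 47.4%, 41.0%, 44.2% and 39.4%. The GC box GGGCGG hardly separated the first 3 sets, at 69.8%, 71.1% and 70.2% against 46.7% of all promoters. The 2 promoters of a pair overlap, and with only the minus-strand gene of each pair (451) the ETS share was 30.2%, NRF1 20.6%, YY1 8.87% and CCAAT 49.0%.

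TATAAA and ATTAAA, made of A and T only, were rarer in the facing-apart promoters. In the same order of 4 sets, TATAAA was in 5.03%, 6.64%, 6.69% and 13.7%. ATTAAA, searched as an AT-rich core like that bound by Arid3a, was in 5.26%, 8.59%, 7.26% and 12.5%. TGANTCA, of AP-1, was in 3.24%, 3.91%, 4.59% and 7.00%, and GGAATG, of the TEAD family, in 9.73%, 11.3%, 11.5% and 13.3%. The E-box CACGTG was in 10.3%, 10.9%, 10.4% and 8.01%. TGACGTCA, the cyclic AMP response element, was in 3.36%, 4.30%, 3.75% and 2.38%. ACTACA followed directly by ATTCC, a core of the ZNF143 motif, was in 1.45%, 0%, 0.913% and 0.463%. In 3.91% of the facing-apart promoters, matches of 2 different motifs overlapped. Between the starts themselves, in 355 pairs with a median of 72 bases and 64.0% G and C, CCAAT was present in 29.3%, GGGCGG in 40.0% and CCGGAAG in 11.3%. Only pairs whose stretch lay in the RefSeq promoter sequences are counted. They lie closer together than all 479, whose median distance was 102 bases.

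The 2 starts of a facing-apart shared region lay close together. Their median distance was 102 bases (5th to 95th percentile 9.90 to 841, full range 1 to 1955), and 76.2% lay within 250 bases. Capza1 and St7l, Ears2 and Ubfd1, and Klhl18 and Kif9 had starts on adjacent bases, while Scaf1 and Rras stood 1538 bases apart and Ist1 and Zfp821 1955. In 414 of the 479 (86.4%) the merged region covered both starts. Distance and merged width were nearly unrelated across these regions (Spearman's rho 0.11, Pearson's r 0.05, n = 479, regions from the same 6 libraries).

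The strongest summit of a library fell between the 2 starts in 28.8% to 36.3% of the facing-apart regions, depending on the library, while the stretch between the starts made up on average 16.4% of the merged region. Up to 500 bases it fell there more often as the starts lay further apart, in 11.97% to 20.5% of pairs up to 100 bases apart, 39.7% to 53.4% of those above 100 and up to 250 bases, and 50% to 61.4% of those above 250 and up to 500 bases. Above that the share was 46.4% to 67.9% up to 1000 bases (28 pairs) and 37.5% to 62.5% beyond (16 pairs). A longer stretch holds more summits by construction. Over all 6 libraries, 60 regions (12.5%) had it between the starts each time, 185 (38.6%) never, and 234 in some libraries only. Where it lay outside, it was in the gene body of the minus-strand gene in 35.3% to 40.5% of regions and in that of the plus-strand gene in 28.4% to 31.1%. The summit was close to a start in any case, at a median of 59 to 79 bases from the nearest one, against 123 to 145.5 bases in constitutive regions at the start of 1 gene. Having 2 starts to choose from makes the nearest one closer by construction.

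**Figure D2:**
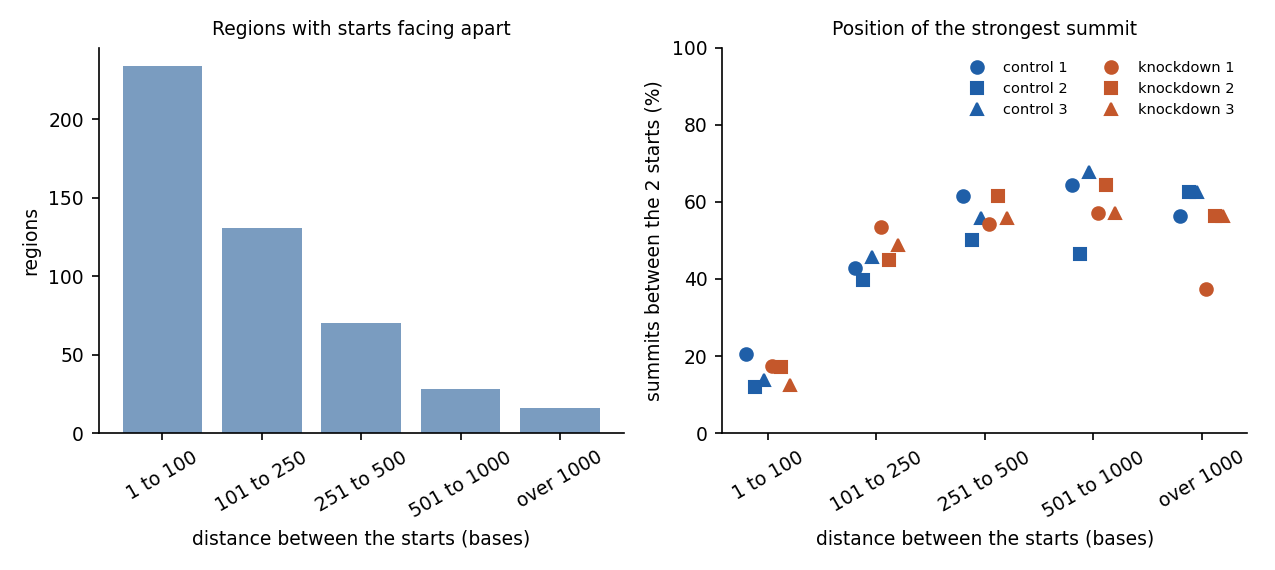
Left, number of facing-apart shared regions (y axis) by distance between the 2 starts (x axis, bases), with 234 at 1 to 100 bases and 16 above 1000. Right, percent of these regions whose strongest summit lies between the starts (y axis), 1 point per library (blue control, orange knockdown, marker by replicate), from 11.97% to 20.5% at 1 to 100 bases up to 50% to 61.4% in the third bin. Control and knockdown points overlap in each bin up to 1000 bases. Above 1000 bases the control points lie at 56.25% to 62.5% and the knockdown points at 37.5% to 56.25%.

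Single pairs followed no one layout. At Mtx1/Thbs3 (chr3:89213875-89214821), with the mitochondrial import protein metaxin and thrombospondin 3 starting 1273 bases apart, the summit lay between the starts in 6 of 6 libraries. At Brca1/Nbr1 (chr11:101551960-101553134) it lay there in 0 of 6, within 84 bases in all libraries, and at Mrps12/Sars2 in 5 of 6. The region at Wrap53 and Trp53 (chr11:69578909-69579536), a telomerase assembly factor and the tumour suppressor p53, lay inside Wrap53 and ended before either start, at 69580250 and 69580348. Its fold was 8.91, 8.43 and 7.74 in control libraries 1 to 3 and 10.4, 8.495 and 7.09 in knockdown libraries 1 to 3.

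Where a start lay beside another gene's end, the signal sat at the start. Of these 265 regions, 250 joined genes on the same strand, with a median of 586 bases from start to end. The summit was nearer the start in 6 of 6 libraries in 222 regions (83.8%), nearer the end in 6 of 6 in 12, and mixed in 31. Medians of the distance ran from 103 to 149 bases to the start and from 673 to 705 bases to the end. Eif4a1, the translation initiation helicase, started beside the end of Senp3, a SUMO protease, in the region with the highest lowest −log10 q of this arrangement (chr11:69672272-69672708). Its fold was 14.2, 13.8 and 16.03 in control libraries 1 to 3 and 13.3, 14.7 and 13.4 in knockdown libraries 1 to 3. All 6 values lay within a narrow band and the groups overlapped.

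In peak size the shared regions differed from other constitutive regions more in width than in height. The median fold per library was 9.35, 7.14 and 9.24 in control libraries 1 to 3 and 9.23, 9.44 and 7.72 in knockdown libraries 1 to 3, so that the low values were those of the 2 libraries with the shortest lists. It exceeded that of regions at 1 gene by 0.168 ± 0.0713 (SD over 6 libraries), with the shared regions higher in 6 of 6. Against regions at no gene end the difference was 0.0225 ± 0.162, higher in 3 and lower in 3. Bases covered by peaks differed in each library, by a mean of 62.75 ± 9.05 over regions at 1 gene and of 209 ± 30.7 over regions at no gene end, both in 6 of 6 libraries. The shared regions had medians of 550 to 696.5 covered bases. Fold and peak width took no part in choosing the regions, but a wider region can more easily reach 2 gene ends.

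Among the arrangements, facing-apart regions had median folds of 7.36 to 9.68 and covered 577 to 706 bases by library. Regions with a start beside an end were lower in each of the 6 libraries, with mean differences of -0.596 ± 0.192 in fold and -55.3 ± 5.32 covered bases. Compared with constitutive regions at the start of 1 gene, the facing-apart regions were higher in each library, by 0.319 ± 0.126 in fold and 72.2 ± 8.32 covered bases. The 17 regions at ends only differed from the facing-apart ones by -221 ± 37.8 covered bases, lower in 6 of 6 libraries, and their fold was higher in 2 libraries and lower in 4.

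**Figure D3:**
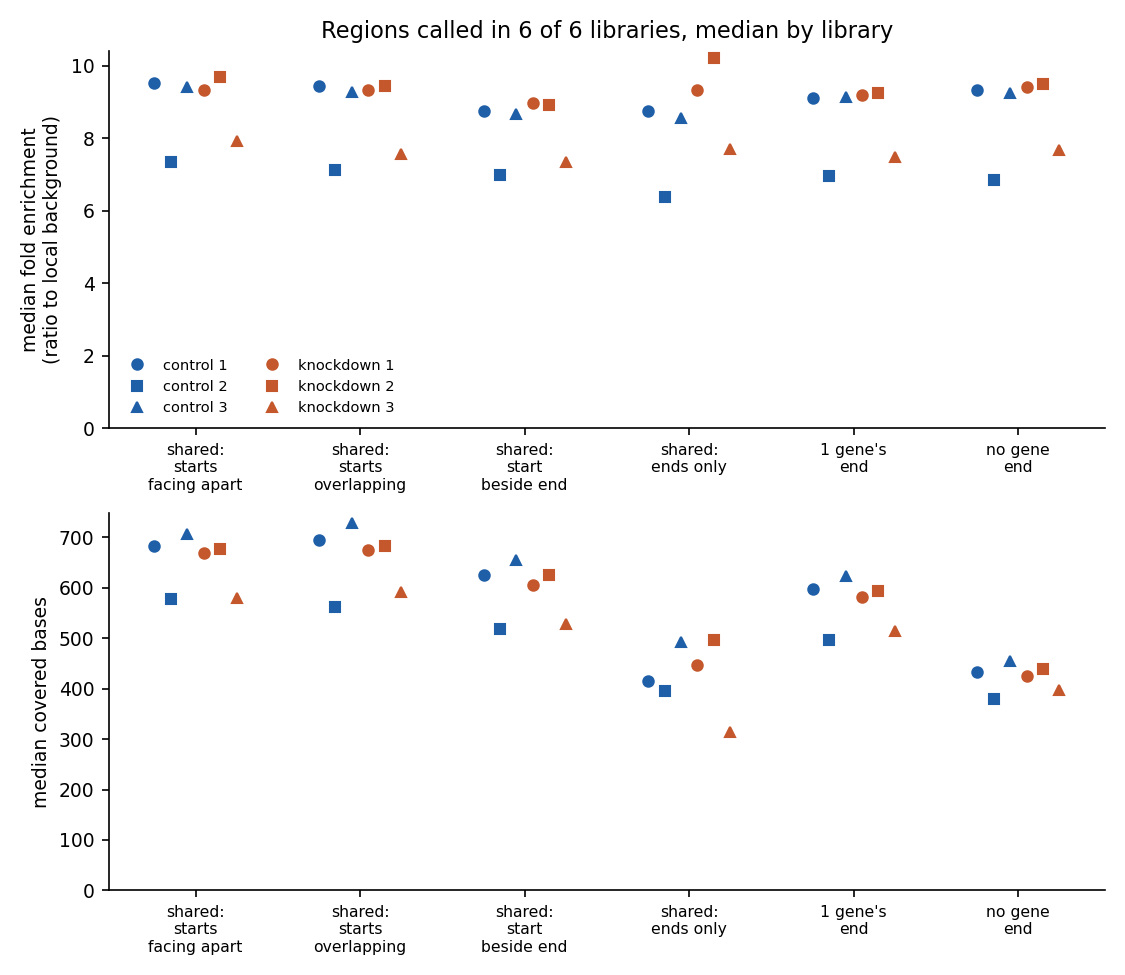
Median fold enrichment at the strongest summit (upper panel, ratio to local background) and median bases covered by peaks (lower panel) in regions called in 6 of 6 libraries, 1 point per library, for 4 arrangements of shared regions and for regions at 1 gene's end or none. Control library 2 and knockdown library 3 are lowest in fold in each class, and covered bases fall from 577 to 706 in facing-apart regions to 379 to 454 at no gene end.

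By its weakest library, the strongest shared region was at Traf7/Rab26, a ubiquitin ligase and a small GTPase (chr17:24527410-24528301), a pair without strand in the tables used that was singled out after its values were seen. Its lowest −log10 q was 51.9, in knockdown library 3, and its mean fold was 16.4 ± 1.35 (SD, n = 6). The strongest with known strand was at Mrpl18, of the large mitochondrial ribosomal subunit, and Tcp1, a subunit of the cytosolic chaperonin, whose starts overlap (chr17:12915808-12916806). The fold was 17.5, 14.5 and 16.7 in control libraries 1 to 3 and 18.7, 17.0 and 15.6 in knockdown libraries 1 to 3, with 41 to 76 tags at the summit. Its lowest −log10 q was 34.4, in control library 2. Among facing-apart starts, Mrpl41, of the same ribosomal subunit, and Pnpla7, a lysophospholipase, came first (lowest −log10 q 32.4), with a mean fold of 15.9 ± 1.26 (SD, n = 6). Hnrnpc/Rpgrip1 followed with 28.5 and a mean fold of 15.8 ± 2.22. The libraries varied little beside these levels, and over all shared regions the SD across the 6 libraries was 17.9% of the mean fold at the median.

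Regions that touched only ends included strong ones. A start or end here is the outer boundary of the annotated gene, so starts of shorter transcripts inside a gene were not considered. The highest was at the neighbouring ends of Atg7, an enzyme of autophagosome formation, and Vgll4, a cofactor of TEAD transcription factors (chr6:114860961-114861625). Its fold was 17.4, 13.6 and 16.7 in control libraries 1 to 3 and 18.4, 13.6 and 11.9 in knockdown libraries 1 to 3, and the groups overlapped. At the ends of Erbb2, a receptor tyrosine kinase, and Mien1 (chr11:98438495-98439138) the mean fold was 10.9 ± 0.922 (SD, n = 6). The ends of Ppt1, a lysosomal thioesterase, and Cap1, an actin regulator (chr4:122859322-122859774), gave 10.0 ± 2.25. These regions lay inside Vgll4, Mien1 and Cap1. Hcfc1r1/Tnfrsf12a and Lpin2/Emilin2, next after Atg7/Vgll4 by lowest −log10 q (16.1 and 12.2), had lower mean folds of 8.33 ± 1.13 and 9.09 ± 0.984.

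A list of 30 gene pairs known or thought to share promoters, chosen from general knowledge, was looked up. Both genes were in the annotation for 29 of them, and 21 pairs had a shared region. Among the 23 pairs whose nearest ends lay within 1000 bases, 20 did. Tk1/Afmid and Tymp/Sco2 were among those that did not. Col4a5/Col4a6 and Tbp/Psmb1 were among 5 pairs without a shared region whose nearest ends lay over 1000 bases apart, up to 568641. They lay 1275 and 1612 bases apart, and Tbp and Psmb1 each had a constitutive region at an end. The mean folds of the 21 ran from 4.80 to 13.7 with a median of 8.72, next to 8.68 over all shared regions.

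Of those 21, Brca1/Nbr1 was highest, with a fold of 13.2, 10.2 and 14.8 in control libraries 1 to 3 and 16.3, 14.0 and 13.7 in knockdown libraries 1 to 3. Atm/Npat (chr9:53536462-53537275) gave 10.0, 10.3 and 13.8 and then 12.7, 14.6 and 11.4. In both pairs control library 3 was the highest control and the groups overlapped. Palb2/Dctn5 (chr7:122132422-122133348) was lower, at 8.25 ± 0.993 (SD, n = 6), and Aimp2/Pms2 (chr5:143909288-143910240) gave 12.3 ± 1.38. At Hspd1 and Hspe1, which encode the mitochondrial chaperonin Hsp60 and its cofactor Hsp10 and have overlapping starts (chr1:55088011-55088613), the fold was 7.98 ± 1.38. Psmb9 and Tap1, an immunoproteasome subunit and the peptide transporter of antigen presentation (chr17:34187076-34188329), gave 9.21 ± 1.57.

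By function, 17 lists and families were looked at. The largest shares with an end in a shared region were those of DNA repair, mitochondrial ribosomal protein, respiratory complex I and RNA polymerase genes. Over all protein-coding genes the share was 12.2% (2661 of 21887). It was 49.3% for DNA repair and replication (35 of 71), 43.6% for mitochondrial ribosomal proteins (34 of 78), 42.9% for genes named Nduf, the subunits and assembly factors of respiratory complex I (21 of 49), and 37.9% for RNA polymerase subunits (11 of 29). Histone genes followed with 30.4% (31 of 102), genes named Psm, mostly of the proteasome, with 25.5% (13 of 51) and genes named Rpl or Rps, mostly ribosomal proteins, with 25% (25 of 100). Genes named Tmem had 19.3% (46 of 238), DNAJ chaperones 17.8% (8 of 45), Cdc genes 12.5% (4 of 32), solute carriers 12% (45 of 375) and Zfp zinc finger genes 9.25% (37 of 400). Among 1110 olfactory receptor genes and 53 keratin genes it was 0, and among 355 vomeronasal receptor genes 1 had a shared region. A constitutive region, shared or not, was present for 36.5% of all genes. The share was 87.3% for DNA repair and replication, 82.8% for RNA polymerase subunits and 79.5% for mitochondrial ribosomal proteins. Nduf genes had 71.4%, Psm genes 70.6% and Rpl or Rps genes 67.0%, while solute carriers, keratins and both receptor families lay below 36.5%. The shares in shared regions are thus not separate from how often a group had any constitutive region.

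Nearly all genes at a shared region, 2658 of 2661, had another gene's end within 2000 bases, which the rule all but requires. Of the 7048 protein-coding genes with such a neighbour, 37.7% had an end in a shared region. On that base the share was 71.4% for DNA repair and replication (35 of 49), 68.0% for mitochondrial ribosomal proteins (34 of 50), 61.8% for complex I (21 of 34), 56.4% for histones (31 of 55), 53.2% for ribosomal proteins (25 of 47) and 52.4% for RNA polymerase subunits (11 of 21), so that RNA polymerase subunits no longer stood above histones and ribosomal proteins. Olfactory receptors kept 0 of 19.

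**Figure D4:**
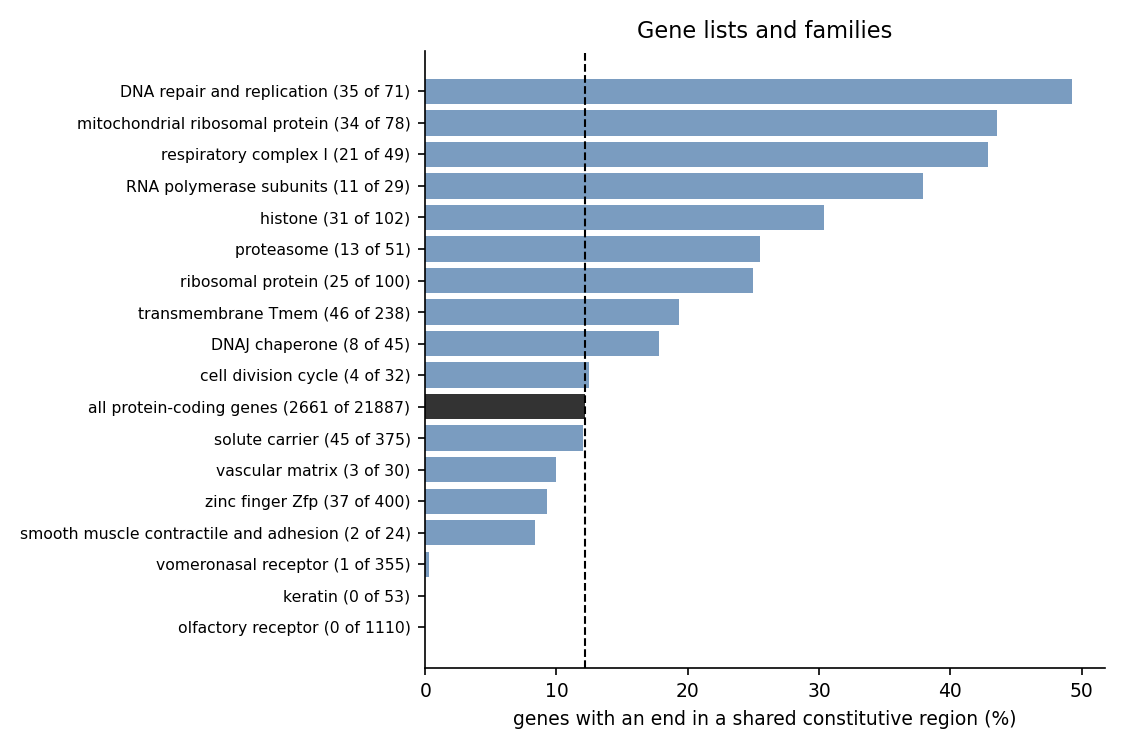
Percent of genes in each list or family (x axis) with an end in a shared constitutive region, the counts beside each name, and all protein-coding genes as the dark bar and dashed line (12.2%). DNA repair and replication reaches 49.3%, while the smooth muscle and vascular matrix lists lie below the line at 8.33% and 10.0%.

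Facing-apart starts were frequent in some of these groups and not in others. They made up 17 of the 26 DNA repair regions with known strand (65.4%), 14 of 18 for complex I (77.8%) and 8 of 10 for RNA polymerase subunits (80.0%), against 46.3% over all shared regions. For mitochondrial ribosomal proteins the share was 15 of 31 (48.4%) and for ribosomal proteins 8 of 17 (47.1%), both near that of all shared regions. In the DNA repair list the median of the mean folds was 9.74, against 8.68 over all shared regions, with Rpa3/Umad1 highest at 16.4 ± 2.94 and 1700065D16Rik/Atr lowest at 5.91 ± 1.48 (SD, n = 6). Rpa3 encodes a subunit of the single-strand DNA-binding complex and Atr the kinase that answers replication stress. Pcna, the sliding clamp of replication, started 158 bases from Cds2, with a fold of 9.74 ± 1.58. Some regions joined 2 genes of 1 list, such as Mcm4/Prkdc, a helicase subunit and the DNA-dependent protein kinase (10.1 ± 1.70), and Mrpl46/Mrps11, of the 2 mitochondrial ribosomal subunits (6.67 ± 1.55).

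Histone regions showed this most, since 13 of the 16 joined at least 2 histone genes, and 12 of the 16 lay on chromosome 13. The 7 facing-apart H2ac/H2bc regions had mean folds of 5.695 to 10.2 with a median of 6.49. H2ac12/H2bc12 (chr13:22035044-22036288) had 10.4, 8.86 and 9.86 in control libraries 1 to 3 and 14.4, 8.08 and 9.63 in knockdown libraries 1 to 3. Knockdown library 1 stood highest there, and the groups overlapped. H2ac8/H2bc8 (chr13:23571013-23571866) had the lowest fold of the 7, from 4.92 to 6.88.

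Genes of the contractile and matrix programmes of smooth muscle were at shared regions about as often as other genes. Of 24 smooth muscle contractile and adhesion genes 2 (8.33%) were, and of 30 vascular matrix genes 3 (10.0%), both near the 12.2% of all genes. Among those with a neighbour within 2000 bases it was 2 of 8 and 3 of 6, against 37.7% of all such genes. Tagln, which encodes transgelin, and Sidt2, a lysosomal membrane protein, shared a region (chr9:45936818-45937204) with a fold of 7.04, 5.69 and 6.04 in control libraries 1 to 3 and 3.83, 6.35 and 6.85 in knockdown libraries 1 to 3. Knockdown library 1 was lowest and the groups overlapped. Ilk, the integrin-linked kinase, and Rrp8, a nucleolar methyltransferase, have overlapping starts, and their region (chr7:105736325-105736938) had 4.20, 9.21 and 7.36 and then 9.66, 6.67 and 4.18. Emilin1, a glycoprotein of elastic fibres, ended beside the start of Khk, ketohexokinase (chr5:30921383-30922042, 8.05 ± 1.48).

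Col4a1 and Col4a2, the chains of the main basement membrane collagen, have starts that overlap by 84 bases. Their region (chr8:11312113-11313690) was the weakest of the listed pairs, with a fold of 5.04, 4.81 and 5.05 in control libraries 1 to 3 and 5.20, 4.44 and 4.28 in knockdown libraries 1 to 3. The 6 peaks did not all lie in 1 place. The summits were at 11313238, 11312229 and 11312298 in control libraries 1 to 3 and at 11313627, 11312233 and 11312634 in knockdown libraries 1 to 3, so that control library 1 and knockdown library 1 peaked on the side of the higher coordinates. The region thus counts as shared by all libraries through peaks that overlap as a chain.

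The summits at Col4a1/Col4a2 spanned 1398 bases, far more than was usual. The strongest summits of the 6 libraries spanned a median of 189.5 bases in shared regions, 179 at 1 gene's end and 125 at no gene end, and the span exceeded 200 bases in 47.0%, 44.6% and 26.1%.

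By chromosome, number 11 held 141 (10.3%, against 7.35% of genes and 8.41% of constitutive regions at 1 gene), chromosome 17 held 94 (6.86%, against 4.84% and 4.97%), the X chromosome 31 (2.26%, against 4.41% and 2.47%) and the Y chromosome 0.

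At the edge of the rule, the weakest shared regions were at Bnip2/Gtf2a2 (lowest −log10 q 1.35, in control library 1), Rabl6/Ccdc183 and Cfap57/Ebna1bp2 (both 1.37, in control library 2). Just outside, Rhot2/Wdr90 (chr17:25844046-25844731), Dmac2l/Cdkl1 (chr12:69743910-69744515) and Fbxl15/Cuedc2 (chr19:46329996-46330329) had a peak in 5 of 6 libraries with median −log10 q of 25.8, 18.9 and 18.04. In all 3 the library without a peak was control library 2.

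Control and knockdown libraries were also set side by side. The share of a library's peaks in shared regions was 2.82%, 4.29% and 2.78% in control libraries 1 to 3 and 2.94%, 2.81% and 3.45% in knockdown libraries 1 to 3. The 2 shortest lists had the highest shares and the groups overlapped. The rule asks for a peak of each library in each shared region, which left 1425 to 1488 such peaks per library. These shares therefore mostly follow list length and do not compare the groups. Of the 1000 strongest peaks of each library, 7.00%, 8.80% and 7.90% lay in shared regions in the control group (mean 7.90% ± 0.900, SD, n = 3) and 6%, 7.30% and 6.60% in the knockdown group (6.63% ± 0.651), with overlap between control library 1 and knockdown library 2.

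Positions and widths of single regions were tested with limma across all 20742 constitutive regions, with Benjamini-Hochberg adjustment and a threshold of 0.05. The position of the strongest summit passed for 4 regions (0.0193%), 1 of them a shared region (0.073% of 1370) and 2 at 1 gene (0.0355%). At an unadjusted p under 0.05 there were 813 (3.92%) over all and 72 (5.26%) among the shared regions. The 3 control summits and the 3 knockdown summits did not overlap in 114 shared regions (8.32%), 63 with the knockdown summits at higher coordinates and 51 at lower ones, against 8.87% of all constitutive regions and 8.32% of those at 1 gene. The median difference over the shared regions was 1.33 bases and the median of its absolute size 42.0 bases, against 32.3 over all. The shared regions thus lay near the background in their count of separated summits.

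Bases covered by peaks, as log2 after subtracting each library's median, gave 0 calls in limma over all constitutive regions (0%), with the smallest adjusted p at 0.567. At an unadjusted p under 0.05 there were 989 regions over all (4.77%) and 61 shared ones (4.45%). The groups did not overlap in 136 shared regions (9.93%), 69 wider and 67 narrower in the knockdown libraries, against 9.35% over all and 9.32% at 1 gene. The smallest p among the shared regions was at Pdf, the mitochondrial peptide deformylase, and Cog8, a Golgi tethering subunit (chr8:107047891-107048946). Centred log2 values there were -0.37, -0.69 and -0.41 in control libraries 1 to 3 and 0.81, 0.70 and 1.01 in knockdown libraries 1 to 3, a difference of 1.33 ± 0.18 (SE) with limma's adjusted p = 0.567, which did not pass.

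The called shared region joined Ttc9c, a tetratricopeptide repeat protein, and Hnrnpul2, a nuclear RNA-binding protein (chr19:8818938-8820317). Each library had 1 peak there. The strongest summit lay at 8819294, 8819342 and 8819344 in control libraries 1 to 3 and at 8820026 in each of the 3 knockdown libraries. The difference was 699 bases ± 24.0 (SE), with limma's adjusted p = 0.00215. The control summits lay at the start of Ttc9c (8819353, minus strand), and the knockdown summits lay inside Hnrnpul2 (8819401 to 8834143). The fold at the summit was 8.27, 6.57 and 10.1 in control libraries 1 to 3 and 8.09, 7.80 and 7.06 in knockdown libraries 1 to 3, so its height overlapped between groups. All 6 peaks spanned both places, since they ran from 8819217 or below to 8820176 or above. A summit is 1 base chosen within a peak, and the signal at the other place was not analysed here.

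**Figure D5:**
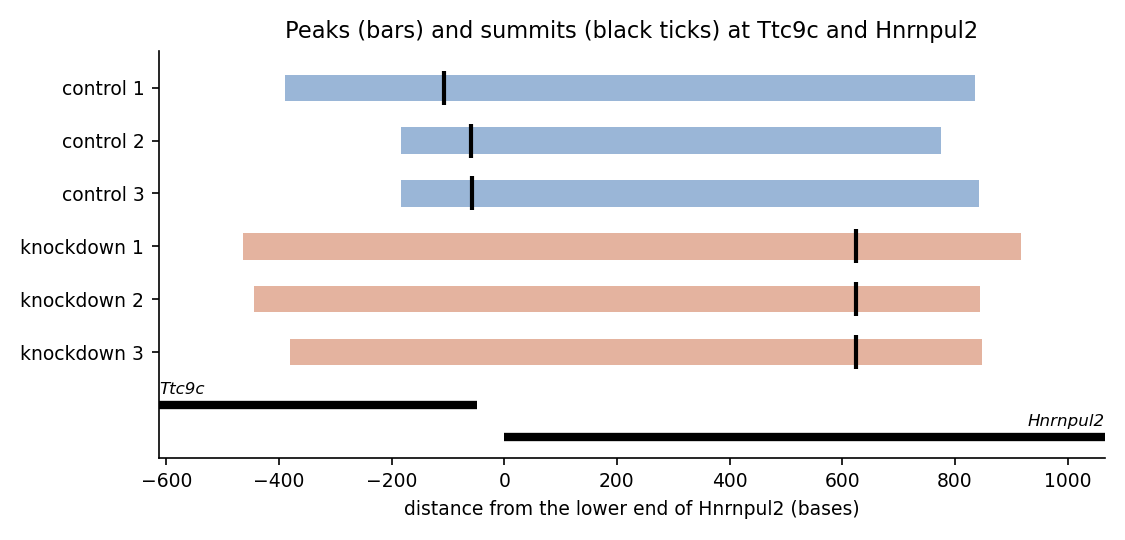
Peaks (bars) and strongest summits (black ticks) of the 6 libraries at Ttc9c and Hnrnpul2, by distance from the lower end of Hnrnpul2 (x axis, bases), with the 2 genes as black bars. The 3 control summits lie at the Ttc9c side and the 3 knockdown summits at 1 position inside Hnrnpul2, while all 6 peaks cover both places.

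None of the next shared regions by p passed. At Washc5/Nsmce2 (chr15:59373772-59374435), a subunit of the WASH complex and a SUMO ligase of genome maintenance, the summits lay at 59374159, 59374203 and 59374133 in control libraries 1 to 3 and at 59373979, 59373976 and 59373982 in knockdown libraries 1 to 3. The difference of -186 bases ± 26.2 (SE) had limma's adjusted p = 0.330. At Apex2/Pfkfb1 (chrX:150587966-150588687), the groups also did not overlap, with 284 bases ± 43.1 (SE) and limma's adjusted p = 0.384.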

How the data were processed

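ATAC-seq was run on 3 control and 3 knockdown libraries. The submitters' processing notes name Bowtie2, Picard, MACS2 and mm10. For versions, duplicate handling, Tn5 shift and peak calling, settings were not given in the sources used here. Missing shifts would move summits by a few bases, and kept duplicates would raise calls in low-complexity libraries. The authors deposited 1 peak list per library, called separately. Each deposited peak has a position and summit, a fold enrichment (a ratio to the local background of its library), a −log10 p and −log10 q, and a score, which is the −log10 q times 10 cut to a whole number. These are the authors' values per peak.

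Tags at the summit were recovered from fold and −log10 p under the Poisson model of MACS2, for at least 99.995% of peaks within 0.001. Peaks were merged with Python 3.11.15, and windows of 1000 bases were set at both ends of 21887 protein-coding genes of a RefSeq table of GRCm38.p6. Strand was taken from RefSeq promoter sequences for 17492 genes. Summit positions and covered bases were fitted with limma 3.58.1 in R 4.3.3 over 20742 regions, and the fit was tested on simulated data. Replicate numbers of the labels showed no pairing of the libraries (correlations of deviations below 0.1), so the test has no block. Such correlations cannot exclude a shared culture or batch.

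The members, gene lists and families (by symbol) were chosen with earlier results of these data known. Genes are named by a rule: listed promoter pairs, regions with most genes, the 5 strongest of each arrangement, the edges of the rule, the smallest p-values, smooth muscle and matrix genes, and the shortest and longest distances between starts. Histone pairs, list extremes and the uncalled regions were named after their values were seen. Alternatives covered windows, peak thresholds, overlap, list length, library subsets and the limma settings. Some genes of the marker and pair lists are counted but not reported here by name.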

Additional observations from a re-analysis of the deposited data

How the results depend on the processing

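The number of shared regions was 1158 with windows of 500 bases, 1781 with 2000, 964 with only peaks of −log10 q 5 or more and 1131 with lists of equal length. It was 724 when each library's peaks had to cover 50% of the region, 752 with gene starts only, and 1369 to 1482 without 1 library, highest without control library 2. Their share of constitutive regions was then 5.58% (500 bases), 8.59% (2000 bases), 7.06% (−log10 q), 6.19% (50% cover), 3.63% (starts only) and 5.72% to 6.51% without 1 library. The share with starts facing apart was 38.9% (500 bases), 29.1% (2000 bases), 63.7% (starts only) and 34.4% to 35.2% without 1 library. Further alternatives were chosen after seeing the data. With the 4 deepest libraries there were 1589 shared regions, 5.13% of constitutive ones. Facing-apart pairs with a shared region were 55.8% (−log10 q), 41.7% (50% cover), 63.6% (equal lists), 81.4% (4 deepest) and 74.6% to 78.3% (without 1 library), and lone starts 19.3%, 15.2%, 23.2%, 36.0% and 29.2% to 32.6%. The pairs stood above the lone starts under each of these.

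The fold difference from regions at 1 gene was 0.132 with means over peaks (higher in 5 of 6 libraries) and 0.164 with regions of at most 2000 bases. With a replicate block, limma called 0 summit positions instead of 4, and Ttc9c/Hnrnpul2 had an adjusted p of 0.189. Whether libraries of the same number share a culture or batch is not known. Ttc9c/Hnrnpul2 stayed called by limma in the other 9 alternatives, with adjusted p of 0.0163 to 0.0275 without 1 library. Calls numbered 2 in regions with 1 peak per library and 4 to 12 without 1 library, the most without control library 2. Where 1 library is left out, its group has 2. Covered bases gave 0 calls in all 10 alternatives. Few tags per summit, a median of 12 to 20.5, limit which weak regions reach all 6 lists.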
